A study of Drosophila melanogaster with 4 samples.

Results

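The genes that make and package small neurotransmitters were followed here in cells sorted from larval brains and from embryos of Drosophila melanogaster. The set holds 10 genes, found by their exact symbols among the 14240 genes counted: ChAT, VAChT, Gad1, VGAT, VGlut, Vmat, ple, Tdc2, SerT and DAT. All 10 were matched. Cells came from brains at 24 h after larval hatching (24 h ALH), when neural stem cells (NSCs) have reactivated, and from embryos at stage 17, when NSCs are quiescent (qNSCs). Both groups carried wor-GAL4 driving the membrane marker UAS-mCD8-GFP, and live GFP+ cells were isolated by FACS and processed with the 10x Chromium 3′ droplet method. There were 2 libraries at each stage, which the labels call biological replicates. The groups share the genotype but differ in age and in source, larval brains against embryos. Age and source therefore cannot be told apart in any stage difference below. Within stage 17 the kit differs too: replicate 1 used chemistry version 2, and every other library used version 3. The paper describes wor-GAL4 as specific to NSCs and used it in this sort to enrich neural cells. The neurons described are those that passed this gate and not a census of the nervous system.

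A fast neuron of the fly brain usually commits to 1 small transmitter, and the commitment can be read from a few genes. ChAT encodes choline acetyltransferase, which makes acetylcholine, and VAChT loads it into synaptic vesicles. Gad1 encodes glutamic acid decarboxylase, which makes GABA, and VGAT loads GABA into vesicles. VGlut loads glutamate into vesicles and marks glutamatergic neurons, which in the fly include the motor neurons, because glutamate itself is made in every cell. Dopamine, tyramine, octopamine and serotonin share 1 vesicular transporter, Vmat. Their cells differ in the enzymes and plasma membrane transporters that go with it. Dopaminergic cells have ple (tyrosine hydroxylase) and DAT (the dopamine transporter). Tyraminergic and octopaminergic cells have Tdc2 (tyrosine decarboxylase), and serotonergic cells have SerT (the serotonin transporter).

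The positions of these genes bear on how their counts are read. In the BDGP6.54 annotation (dm6), ChAT (FBgn0000303) lies on 3R at 18705501 to 18732344 on the plus strand, and VAChT (FBgn0270928) lies within it at 18705501 to 18718916 on the same strand, with the same start and 606 exonic bases shared. This nested arrangement is the cholinergic locus, in which the transporter gene sits inside the gene of the enzyme. Gad1 (FBgn0004516) lies on 3L at 4074077 to 4088744 on the minus strand and overlaps CG14989, on the plus strand at 4087581 to 4092706, by 1164 bases. VGlut (FBgn0031424) lies on 2L at 2400295 to 2410662 on the plus strand. The genes VGAT, Vmat, Tdc2, SerT and DAT lie apart from each other on 2R, all on the minus strand: VGAT (FBgn0033911) at 14198478 to 14201249, Vmat (FBgn0260964) at 13513132 to 13534251, Tdc2 (FBgn0050446) at 6684745 to 6689974, SerT (FBgn0010414) at 24404595 to 24411074 and DAT (FBgn0034136) at 16558567 to 16565238. The last, ple (FBgn0005626), lies on 3L at 6713356 to 6719525 on the minus strand. Whether the counting used strand is not given in the sources used here, so how reads in the overlap of Gad1 and CG14989 were assigned was not checked.

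The deposited values were counts of unique molecular identifiers (UMIs), each a single RNA molecule caught in a droplet. The 4 libraries held 104006786 UMIs in 4152 called cells, of which 3567 met the limits on genes and mitochondrial share (923 and 1015 at 24 h ALH, 409 and 1220 at stage 17). Depth differed by stage: the kept cells had a median of 48895 and 17791 UMIs at 24 h ALH, against 3812 and 4861.5 at stage 17. Cell barcodes were shared by the second stage 17 library with the first (12) and the second (1) 24 h ALH library, and 5 of these cells were kept. Clusters were found without the 10 genes and named from marker genes: neuron-like clusters held 187 and 278 cells at 24 h ALH and 221 and 622 at stage 17, and NSC-like clusters held 514 and 336 cells at 24 h ALH and 25 and 24 at stage 17. The 9 neuron markers summed to 201 to 258 UMIs per 10000 in the neuron-like sums and 2.37 to 28.5 in the NSC-like sums. For the 5 NSC markers the sums were 0.216 to 0.503 in neuron-like and 7.85 to 33.4 in NSC-like cells. All markers of both lists were detected in the sums of both classes, so detection alone does not separate them. The names were rebuilt here, so a difference from the study may come from them.

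One neuron-like cluster, cluster 6, stood apart. Of its 182 cells 173 came from the second stage 17 library (95.1%), and their median depth was 3936 UMIs, against 11129 in the other neuron-like cells of that library. Their 9 neuron markers summed to 233 UMIs per 10000. The 9 muscle markers, all detected, summed to 16.9 UMIs per 10000 in cluster 6, against 2.26 to 4.57 in the other neuron-like clusters of the library, and the 8 glia markers, all detected, to 14.9, against 6.65 to 8.498 in the others. The unnamed cluster 3 was 89.9% from the same library, with muscle markers at 26.9 and glia markers at 16.2 UMIs per 10000 in those cells. The main neuron results are therefore also given without cluster 6, a choice made after seeing the data.

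The fast transmitters were common in neuron-like cells at both stages, and the monoamine genes were rare. To compare shares of cells across stages, 1000 UMIs were drawn from each cell, and 6 shallower cells of the first stage 17 library were left out. At this depth ChAT had a UMI in 24.6% and 24.1% of neuron-like cells at 24 h ALH, against 22.3% and 28.9% at stage 17. VAChT, the vesicular partner, was seen more often than ChAT in each of the 4 libraries, in 35.3% and 30.6% of cells at 24 h ALH and 33.5% and 43.1% at stage 17. For both cholinergic genes the ranges of the stages overlapped.

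Gad1 was found in 18.7% and 21.2% of neuron-like cells at 24 h ALH, against 27.9% and 28.5% at stage 17. VGAT was found in 6.42% and 9.35% at 24 h ALH, against 10.2% and 11.7% at stage 17, and VGlut in 11.2% and 21.2% at 24 h ALH, against 22.8% and 33.4% at stage 17. Both 24 h ALH libraries lay below both stage 17 libraries for these 3 genes. How many of all genes separate in this way was not counted. The means were 19.97% ± 1.77 and 28.2% ± 0.39 for Gad1, 7.88% ± 2.08 and 11.0% ± 1.06 for VGAT, and 16.2% ± 7.07 and 28.1% ± 7.53 for VGlut, in 24 h ALH and stage 17 neuron-like cells (SD, n = 2 each). An exact two-sided permutation test of 2 libraries against 2 gave p = 0.33 for each of these 3, which is the smallest p this design allows, and it gave p = 1 for ChAT and p = 0.667 for VAChT. Without cluster 6 the mean share was 20.2% at 24 h ALH and 27.0% at stage 17 for Gad1, and 16.05% and 25.7% at these stages for VGlut.

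Vmat, the vesicular transporter of dopamine, serotonin, tyramine and octopamine, had a UMI in 4.81% and 1.44% of neuron-like cells at 24 h ALH. At stage 17 the shares were 7.44% and 8.36%. Without cluster 6 the means were 3.15% at 24 h ALH and 6.35% at stage 17. The 4 genes specific to single amines each stayed below 2.4% of cells in every library. SerT ranged from 0 of 278 cells in the second 24 h ALH library, which allows a share of up to 1.08%, to 2.14% in the first. ple lay between 0.360% and 2.33%, Tdc2 between 0.719% and 2.09%, and DAT between 0.360% and 2.33%. Both 24 h ALH libraries lay below both stage 17 libraries for ple (means of 0.447% and 1.65%), Tdc2 (0.894% and 1.74%) and DAT (0.715% and 2.05%) as well, and DAT overlapped without cluster 6. These shares rest on few cells, and the exact 95% intervals of the 4 libraries overlapped for each of the 4 genes.

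Shares at this depth count cells with a caught molecule and not cells that use the gene, and detection in glia-like cells was not the same at both stages. In glia-like cells, 1000 UMIs held ChAT in 0 of 64 cells at 24 h ALH and in 7.59% of 79 cells at stage 17, Gad1 in 0 and 3.80%, and VGlut in 0 and 7.59%. These cells also carried neuron markers: the 9 summed to 19.1 and 11.0 UMIs per 10000 at 24 h ALH, against 32.9 and 127 at stage 17. In the second stage 17 library the 8 glia markers of these cells summed to 54.8. The part of neuronal or mixed cells in the glia-like shares was not tested. The median depth of these glia-like cells before thinning was 13863 UMIs at 24 h ALH and 4409.5 at stage 17. In neuron-like cells these 3 genes stood above the glia-like shares in every library, and the glia-like shares were higher at stage 17. With all UMIs used, 65.2% and 59.4% of neuron-like cells had ChAT at 24 h ALH and 45.2% and 66.1% at stage 17, and VGAT was found in 59.4% and 51.8% at 24 h ALH, against 33.9% and 54.5% at stage 17, at median depths of 16177 and 11356, against 4384 and 7698.5 UMIs.

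**Figure D1:**
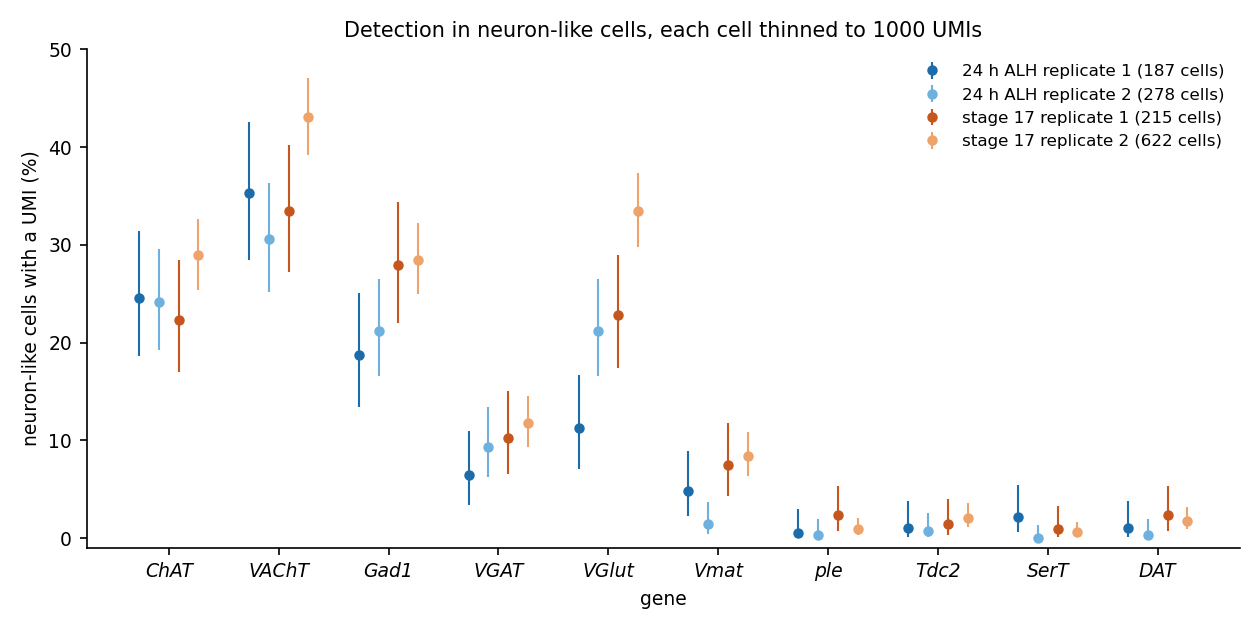
Share of neuron-like cells with at least 1 UMI of each of the 10 genes (y axis, percent) after each cell was thinned to 1000 UMIs, for each of the 4 libraries (points, with Clopper-Pearson intervals at 95%, for counting error alone). VAChT was found most often in every library (30.6% to 43.1%), the 24 h ALH libraries lie below the stage 17 libraries for 7 genes (Gad1, VGAT, VGlut, Vmat, ple, Tdc2 and DAT), and ple, Tdc2, SerT and DAT stay below 2.4%.

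Most neuron-like cells showed at least 1 fast transmitter even at 1000 UMIs. Taking ChAT or VAChT as acetylcholine, Gad1 or VGAT as GABA and VGlut as glutamate, 73.8% (exact 95% interval 66.9% to 79.9%) and 82.0% (77.0% to 86.3%) of neuron-like cells had a UMI of any of the 5 genes at 24 h ALH, against 83.7% (78.1% to 88.4%) and 88.4% (85.6% to 90.8%) at stage 17. The mean was 77.9% ± 5.81 at 24 h ALH and 86.1% ± 3.33 at stage 17 (SD, n = 2 each), and the exact permutation test gave p = 0.33 (77.9% and 85.0% at these stages, with the same p, without cluster 6). Intervals here and elsewhere are exact Clopper-Pearson and cover counting error only.

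Among cells with a UMI of any of the 5 genes, acetylcholine alone was the largest class in every library. It made up 56.5% and 45.2% at 24 h ALH and 38.3% and 35.5% at stage 17. GABA alone made up 23.2% and 25.9% at 24 h ALH and 24.4% and 15.1% at stage 17, and glutamate alone 13.8% and 21.9% at 24 h ALH and 20.6% and 16.5% at stage 17. The order of GABA alone and glutamate alone was not the same in all 4 libraries, since glutamate was above GABA in the second stage 17 library only.

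Cells with UMIs of more than 1 transmitter were 6.52% and 7.02% of the cells with any at 24 h ALH, and 16.7% and 32.9% at stage 17. The mean was 6.77% ± 0.35 at 24 h ALH and 24.8% ± 11.5 at stage 17 (SD, n = 2 each), and the exact two-sided permutation test gave p = 0.33, the smallest it allows. Without cluster 6 the stage 17 libraries held 15.9% and 24.7%, and the means became 6.62% ± 0.07 at 24 h ALH and 20.3% ± 6.20 at stage 17, with the same p. With all UMIs used in place of 1000, the share was 47.0% and 43.2% at 24 h ALH, against 40.9% and 77.7% at stage 17, so the stages overlapped (exact permutation p = 1). Cells with all 3 transmitters were 0% and 0.438% at 24 h ALH, against 0.556% and 4.36% at stage 17. Glia-like cells bear on this: at 1000 UMIs 2 of 64 at 24 h ALH and 19 of 79 at stage 17 had a UMI of any of the 5 genes, and 5 of those 19 had more than 1 transmitter. The part of such stray RNA in the neuron-like shares was not tested.

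**Figure D2:**
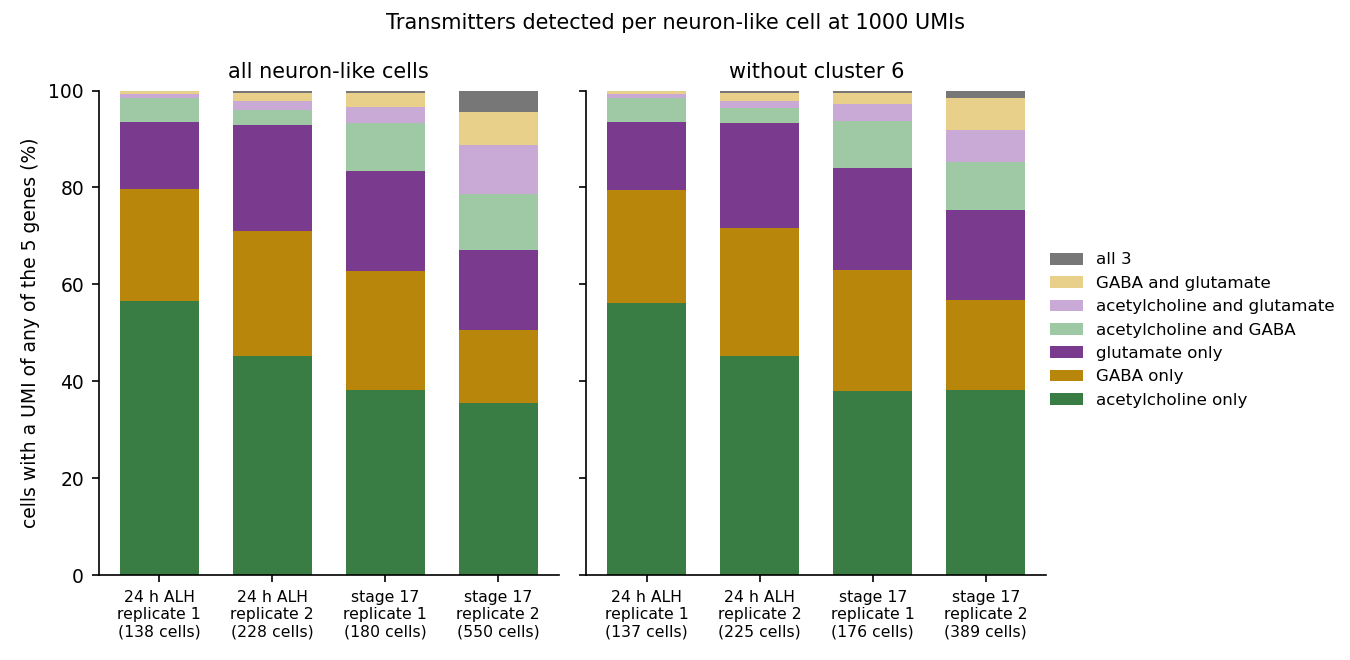
Transmitters detected per neuron-like cell at 1000 UMIs, as stacked shares (y axis, percent) of the cells with a UMI of any of the 5 fast transmitter genes, per library, for all neuron-like cells and without cluster 6. Cells with more than 1 transmitter make up 6.52% and 7.02% in the 24 h ALH bars and 16.7% and 32.9% in the stage 17 bars, and without cluster 6 the second stage 17 bar holds 24.7%.

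Genes of different transmitters avoided each other in single cells and genes of the same transmitter met. The comparison value is the number of cells expected to hold both genes if each were placed without regard to the other, the product of their shares, and it is a description. Without cluster 6, ChAT and Gad1 met in 3 and 1 cells at 24 h ALH, where the products were 8.66 and 14.0, and in 4 and 20 cells at stage 17, where they were 13.2 and 34.7. ChAT and VGlut met in 1 and 2 cells at 24 h ALH (products 5.19 and 13.5) and in 4 and 17 cells at stage 17 (10.9 and 37.6). Gad1 and VGlut met in 0 and 1 cells at 24 h ALH (products 3.95 and 12.3) and in 4 and 24 cells at stage 17 (13.2 and 34.2). Each of these pairs was thus below its product in each of the 4 libraries.

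The pairs that serve 1 transmitter were above their products. ChAT and VAChT met in 26 and 36 cells at 24 h ALH (products 16.1 and 19.9) and in 26 and 86 cells at stage 17 (15.7 and 50.8). Gad1 and VGAT met in 7 and 14 cells at 24 h ALH (products 2.26 and 5.60) and in 14 and 30 cells at stage 17 (6.05 and 14.3). How reads of the first exon that ChAT and VAChT share were counted was not checked.

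Cluster 6 was different in this measure. In its 173 cells from the second stage 17 library, ChAT and Gad1 met in 17 cells (product 16.4), ChAT and VGlut in 19 (22.4) and Gad1 and VGlut in 26 (26.5), close to the products. With all UMIs the same was seen, with 98 cells for ChAT and Gad1 (product 94.0), 105 for ChAT and VGlut (102) and 104 for Gad1 and VGlut (103). Muscle and glia markers were also higher in this cluster, as given above, and their part in this was not tested.

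The UMIs themselves gave a sharper picture than presence alone, since a single stray molecule makes a cell positive. In neuron-like cells with at least 5 UMIs of the 5 fast transmitter genes (177 and 275 cells at 24 h ALH, 169 and 581 at stage 17), the leading transmitter held at least 90% of these UMIs in 88.1% (82.4% to 92.5%) and 86.5% (81.9% to 90.3%) of cells at 24 h ALH, against 69.8% (62.3% to 76.6%) and 49.1% (44.9% to 53.2%) at stage 17. The median number of these UMIs per cell was 27 and 24 at 24 h ALH and 13 and 20 at stage 17. Without cluster 6 the shares were 88.1% and 86.7% at 24 h ALH and 70.5% and 63.5% at stage 17. Thus both 24 h ALH libraries lay above both stage 17 libraries with and without the cluster, which itself held 9.09% of 154 cells at this level, and the unnamed cluster 3 held 1.53% of 326.

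Few cells were evenly mixed outside these clusters. The leading transmitter held under 60% of a cell's UMIs in 0% and 2.18% of cells at 24 h ALH and in 3.55% and 19.3% at stage 17, and the last value was 10.3% without cluster 6, where it was 44.2%. By leading transmitter, 60.5% and 52.4% of these cells were cholinergic at 24 h ALH, against 40.2% and 57.5% at stage 17. GABA led in 24.3% and 22.5% at 24 h ALH and in 35.5% and 21.7% at stage 17, and glutamate in 15.3% and 25.1% at 24 h ALH and in 24.3% and 20.8% at stage 17. For all 3 transmitters the stages overlapped by this measure.

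**Figure D3:**
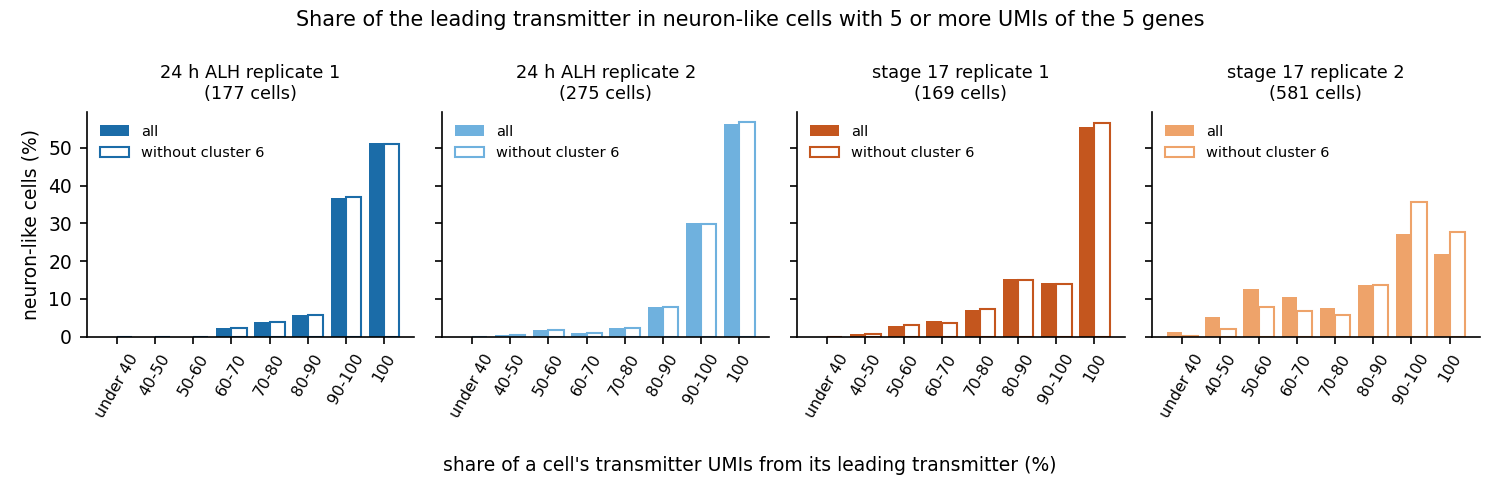
Share of neuron-like cells (y axis, percent) by the share of a cell's fast transmitter UMIs that come from its leading transmitter (x axis, percent, in bins), for cells with 5 or more such UMIs, 1 panel per library; filled bars are all neuron-like cells and open bars leave out cluster 6. The last bins, 90% and above, hold 88.1% and 86.5% of cells at 24 h ALH and 69.8% and 49.1% at stage 17.

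The vesicular transporters followed the enzymes, to different degrees. For this, neuron-like cells with UMIs of 1 of ChAT, Gad1 and VGlut and none of the other 2 were taken, using all UMIs. Of the cells with Gad1 alone (32 and 49 at 24 h ALH, 52 and 64 at stage 17), 96.9% and 89.8% had VGAT at 24 h ALH, against 55.8% and 79.7% at stage 17 (87.0% without cluster 6 for the last). Of the cells with ChAT alone, 100% and 100% had VAChT at 24 h ALH and 93.8% and 99.2% at stage 17. VAChT was in 6.25% and 6.12% of the cells with Gad1 alone at 24 h ALH and in 25% and 23.4% at stage 17.

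VGAT was the least exclusive by presence. It was found in 39.8% and 33.1% of the cells with ChAT alone at 24 h ALH and 21.9% and 47.9% at stage 17, and in 69.6% and 49.1% of those with VGlut alone at 24 h ALH and 13.5% and 40.6% at stage 17. By level it was not even across them: in the cells with Gad1 alone VGAT made up 2.56 and 2.91 UMIs per 10000 at 24 h ALH and 2.62 and 3.35 at stage 17. In the cells with ChAT alone it was 0.337 and 0.340 at 24 h ALH and 0.496 and 0.540 at stage 17, and in those with VGlut alone 0.479 and 0.526 at 24 h ALH and 0.271 and 0.630 at stage 17. The level was thus higher with Gad1 alone in each library, at a median of 1 to 2 VGAT UMIs per positive neuron-like cell over the 4 libraries.

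The clusters differed in the transmitters their cells carried. The 10 genes were left out of the clustering, but CG14989, which overlaps Gad1, was not, so the Gad1 share of a cluster is not independent of how it was found. At 1000 UMIs, VGlut was in 70.4% of 27 cells at 24 h ALH and 74.0% of 77 cells at stage 17 in cluster 10, which is led by twit, while Gad1 was in 0 of the 27 (which allows up to 11.1%) and 13.0% of the 77. In cluster 13, whose leading genes include prt and Dop1R2, VAChT was in 62.9% of 35 cells at 24 h ALH and 68.8% of 16 at stage 17, with VGlut in 0 of the 35 (up to 8.57%) and 6.25% of the 16. Cluster 2, whose leading genes include CG14989 and Gad1, had Gad1 in 39.9% of cells at 24 h ALH and 43.9% at stage 17, against 10.7% and 12.5% at these stages in cluster 0. In cluster 0 VAChT was in 38.7% of cells at 24 h ALH and 46.5% at stage 17.

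Across neuron-like cells within a library, the correlation of log-normalized levels gave the same grouping. The mean Pearson r over the 4 libraries (187 to 622 cells each, which share library and depth) is a description. ChAT had r = 0.77 with VAChT, −0.43 with Gad1, −0.36 with VGlut and −0.31 with VGAT. Among 4927 other genes, the 4 nearest to ChAT were CG7708 (r = 0.64), which is the choline transporter ChT and lies 18761 bases upstream of ChAT on 3R, CG14762 (0.56), CG31221 (0.54) and cpo (0.50). Without cluster 6 the value was 0.80 with VAChT, −0.45 with Gad1 and −0.38 with VGlut, and these 4 genes were again the nearest.

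Gad1 had r = 0.61 with VGAT, −0.47 with VAChT and −0.22 with VGlut. Its nearest genes were CG14989 (0.92), which overlaps it on the opposite strand, Ssadh (0.47), which encodes the succinic semialdehyde dehydrogenase of GABA breakdown, CG32225 (0.45) and CG32017 (0.43). For VGlut they were CG34355 (0.56), CG14274 (0.33), rhea (0.33), which encodes talin, and Tsp42Eg (0.32). Among the members, Vmat was nearest to Tdc2 (0.57), DAT (0.46), SerT (0.38) and ple (0.31), and among other genes to JhI-21 (0.35), Tbh (0.33), which makes octopamine from tyramine, CG2269 (0.29) and Ddc (0.26), the decarboxylase that makes dopamine and serotonin.

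Most Vmat UMIs lay in a small number of cells. Neuron-like cells with at least 10 Vmat UMIs numbered 9 and 3 at 24 h ALH and 10 and 14 at stage 17, and held 99.9% and 99.8% of all Vmat UMIs of neuron-like cells at 24 h ALH and 97.3% and 91.4% at stage 17. The lowest, median and highest counts per cell were 18, 282 and 2154 and then 15, 1447 and 2376 in the 24 h ALH libraries, against 30, 60.5 and 192 and then 13, 130.5 and 734 in the stage 17 libraries. The single richest cell held 47.6% and 61.8% of the library's neuron-like Vmat UMIs at 24 h ALH, and 24.8% and 22.3% at stage 17.

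These cells fell mostly into 3 kinds by the partner genes present at 3 or more UMIs. Tdc2 alone was seen in 2 and 1 cells at 24 h ALH and 3 and 4 at stage 17, SerT alone in 4 and 1 at 24 h ALH and 2 and 2 at stage 17, and ple or DAT alone in 1 and 0 at 24 h ALH and 5 and 4 at stage 17. One cell of the second 24 h ALH library carried more than 1 kind, and 2 and 0 cells at 24 h ALH and 0 and 4 at stage 17 carried none. In 3 of the 4 libraries every cell with SerT at this level also had 3 or more UMIs of Trhn, the tryptophan hydroxylase of neurons: 4 and 1 cells at 24 h ALH and 2 at stage 17, with none of 2 in the second stage 17 library.

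Single cells show how the sets stand together. A Tdc2 cell of the first 24 h ALH library held 2154 Vmat, 177 Tdc2 and 155 Tbh UMIs, with 23 of VGlut and none of ChAT or Gad1. A SerT cell of the same library held 474 Vmat, 79 SerT and 62 Trhn UMIs with none of ple, Tdc2, DAT, VGlut, ChAT or Gad1. A dopaminergic set was seen in a cell of the first stage 17 library with 192 Vmat, 69 ple and 172 DAT UMIs. The mixed cell of the second 24 h ALH library held 2376 Vmat, 116 Tdc2, 129 Tbh, 105 DAT and 9 ple UMIs. Scrublet called 0 doublets among the neuron-like cells of that library, but doublets of similar cells can escape such calls. Whether the mixed barcode held a single cell was not tested.

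Other cells had Vmat without a set. A cell of the first 24 h ALH library held 264 Vmat UMIs with 0 of ple, Tdc2, SerT, DAT, Tbh and Trhn, and 2 cells of the second stage 17 library held 158 and 136 with 0 of the 4 members and of Tbh and Trhn. VGlut was present at 3 or more UMIs in 3 and 3 of the Vmat-rich cells at 24 h ALH and in 5 and 7 at stage 17. Of the 14 such cells of the second stage 17 library, 4 were in cluster 6.

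**Figure D4:**
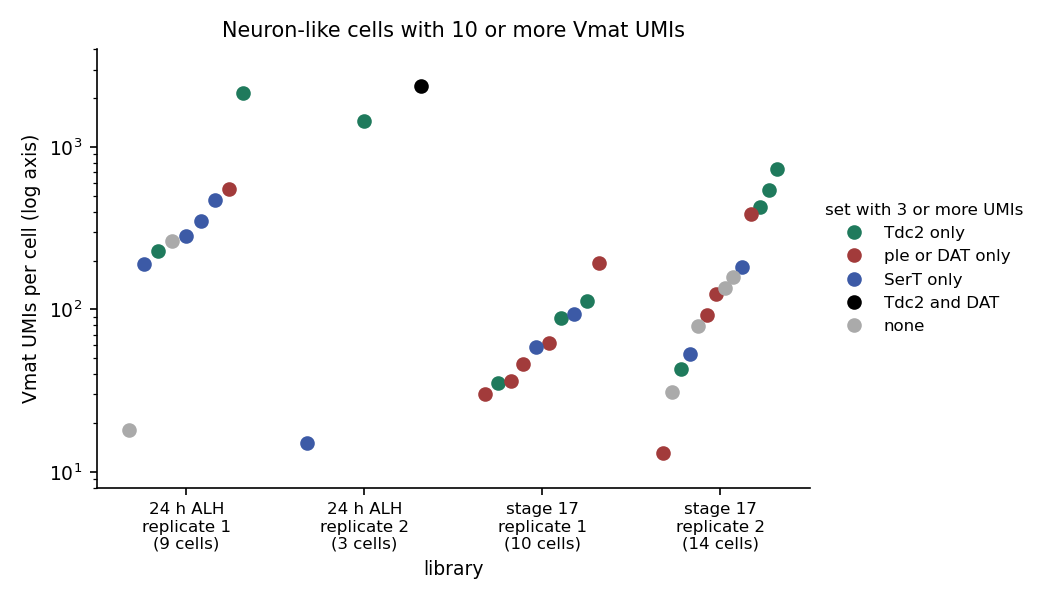
Vmat UMIs per cell (y axis, log scale) in neuron-like cells with 10 or more of them, 1 column per library and 1 point per cell, coloured by the partner genes present at 3 or more UMIs. The counts run from 18 to 2154 and from 15 to 2376 in the 24 h ALH libraries and from 30 to 192 and from 13 to 734 in the stage 17 libraries.

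To ask whether the level of each gene differs between the stages in neurons, raw UMIs were summed over the neuron-like cells of each library and tested with edgeR's quasi-likelihood test, 2 libraries against 2, with Benjamini-Hochberg adjustment over 7269 genes. Gad1 was lower and Vmat higher at 24 h ALH, and the other 8 genes did not pass the test. In such sums, fewer cells of a type and less RNA per cell cannot be told apart. Of all genes tested, 30.8% passed at an adjusted p under 0.05, so 2 of 10 is not above the background, and the median log2 difference was −0.51 over the 10 genes and −0.0035 over all genes. These p-values measure the spread between the libraries of a stage. Without cluster 6 the other 8 again did not pass (adjusted p = 0.118 to 0.957).

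Markers of other cell types moved with stage in the same sums. The 8 glia markers stood at 2.17 and 2.27 UMIs per 10000 in neuron-like cells at 24 h ALH, against 8.08 and 8.66 at stage 17, and the 9 muscle markers at 0.407 and 1.10, against 1.98 and 4.72. The 5 progenitor markers stood at 5.14 and 5.56 at 24 h ALH, against 1.44 and 1.38 at stage 17. Their part in the stage differences of the 10 genes was not tested.

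Gad1 had 409 and 457 UMIs per 1000000 (CPM) in neuron-like cells at 24 h ALH, against 972 and 671 at stage 17. Both 24 h ALH libraries lay below both stage 17 libraries, and Gad1 fell by 1.01 on the log2 scale (SE 0.23, edgeR adjusted p = 0.0259). Without cluster 6 the difference was −1.04 (adjusted p = 0.0223). Without 24 h ALH replicate 1 and without replicate 2 the adjusted p was 0.339 and 0.216, with 1 library left at that stage, and cells thinned to 1000 UMIs gave −0.75 (adjusted p = 0.158). Cells with Gad1 had a median of 25 and 20 of its UMIs in the deeper 24 h ALH libraries and 10 and 3 at stage 17. Cells with 10 or more held most of its UMIs, 99.0% and 96.5% at 24 h ALH and 86.7% and 89.5% at stage 17.

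Vmat had 1236 and 1038 CPM in neuron-like cells at 24 h ALH, against 633 and 411 at stage 17. The groups did not overlap, and Vmat rose by 1.04 on the log2 scale (SE 0.25, edgeR adjusted p = 0.0290), or 1.02 without cluster 6 (adjusted p = 0.030). This rise rests on the few Vmat-rich cells described above. When every cell was thinned to 1000 UMIs, so that each weighed the same, the difference was −0.032, and when neurons were gated by markers instead of clusters it was 0.10 (adjusted p = 0.829). Without 24 h ALH replicate 1 and without replicate 2 the adjusted p was 0.275 and 0.140.

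The other fast transmitter genes did not pass the test. ChAT had 353 and 353 CPM in neuron-like cells at 24 h ALH, against 253 and 399 at stage 17, and VAChT had 469 and 494, against 452 and 781, so both overlapped. Their log2 differences were −0.0088 (SE 0.31, edgeR adjusted p = 0.985) and −0.48 (SE 0.33, adjusted p = 0.310). VGAT had 77.9 and 95.5 CPM at 24 h ALH, against 114 and 120 at stage 17 (−0.54, SE 0.24, adjusted p = 0.130). VGlut had 318 and 812 CPM at 24 h ALH, against 989 and 732 at stage 17 (−0.69, SE 0.45, adjusted p = 0.278), with 1 library of 24 h ALH between those of stage 17.

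For the genes of single amines, 1 library often decided the level. ple had 25.7 and 7.56 CPM in neuron-like cells at 24 h ALH, against 110 and 19.1 at stage 17 (log2 difference −1.93, SE 0.92, edgeR adjusted p = 0.161). DAT had 72.4 and 29.7 CPM at 24 h ALH, against 298 and 55.0 at stage 17 (−1.81, SE 0.80, adjusted p = 0.134). In both genes the first stage 17 library was highest. SerT had 59.0 and 2.16 CPM at 24 h ALH, against 25.3 and 7.11 at stage 17 (1.08, SE 1.5, adjusted p = 0.622), and Tdc2 had 55.8 and 59.6 CPM at 24 h ALH, against 93.2 and 54.1 at stage 17 (−0.41, SE 0.29, adjusted p = 0.310).

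Genes that act beside the 10 were taken as a list of 27 enzymes and transporters, of which 24 were matched. Of the 19 that passed the filter on low counts in neuron-like cells, 3 were higher and 2 lower at 24 h ALH (edgeR, 5 of 19 against 30.8% of all genes). Got2, a mitochondrial aspartate aminotransferase, had 54.1 and 59.1 CPM at 24 h ALH, against 14.7 and 8.86 at stage 17 (log2 difference 2.27, adjusted p = 0.00741). The vesicular transporter prt, also a leading gene of cluster 13, had 185 and 104 CPM at 24 h ALH, against 32.7 and 51.0 at stage 17 (1.63, adjusted p = 0.0293), and Catsup, a regulator of dopamine synthesis, had 28.4 and 23.7 CPM at 24 h ALH, against 7.36 and 8.36 at stage 17 (1.56, adjusted p = 0.0135). Of the genes that were lower, Gs2, a glutamine synthetase, had 15.6 and 13.5 CPM at 24 h ALH, against 45.8 and 29.8 at stage 17 (−1.43, adjusted p = 0.0164).

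Outside neurons the first question is whether NSCs carry these genes. Set against neuron-like cells of the same libraries, all 10 were lower in NSC-like cells at both stages (edgeR, library as a block), where 34.7% of 7860 genes were lower in NSC-like cells at 24 h ALH and 25.5% at stage 17. VGAT, ple, Tdc2, SerT and DAT did not pass the filter on low counts in NSC-like sums alone. They entered this test through the neuron-like sums, where they are higher, so their part of this count is no result about them. At 24 h ALH the log2 difference was −7.64 for ChAT, −7.57 for VAChT, −7.62 for Gad1, −6.69 for VGlut and −8.67 for Vmat. For the 5 genes that entered through the neuron-like sums, the fitted values are given as a description, without a test. These were −7.26 for VGAT, −4.50 for ple, −9.17 for Tdc2, −8.25 for SerT and −8.41 for DAT. The median over the 10 genes, with these 5 included, was −7.63, against 0.15 over all genes.

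At stage 17 the distance to neurons was −6.23 for ChAT, −5.39 for VAChT, −5.68 for Vmat and −3.81 for VGlut on the log2 scale. Of the genes that entered through the neuron-like sums, VGAT stood at −3.65 and ple at −3.34. These 2 values rest on 0 and 4 NSC-like UMIs per library for VGAT and 0 and 2 for ple. Gad1 was closest, at −2.79 (SE 0.56, edgeR adjusted p = 0.00670). Tdc2, SerT and DAT had 0 UMIs over the 49 cells of that class, where 3 UMIs over both libraries would be 9.30 CPM. Against that limit they were at least 6.38-fold, 1.02-fold and 9.37-fold lower in NSC-like cells. With cells gated by markers in place of clusters, 4 of the 10 passed at stage 17, and Gad1 stood at −0.98 (adjusted p = 0.0637). The median over the 10 genes was −5.54 as fitted and −3.49 with these 3 at their limits, against −0.33 over all genes.

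The NSC-like signal of the fast transmitter genes was small beside neurons at 24 h ALH and spread widely at stage 17. As a share of the neuron-like level, the 5 fast transmitter genes in NSC-like cells stood at 0.385% to 0.767% and 0.208% to 1.07% in the 24 h ALH libraries, against 0% to 19.2% and 2.20% to 33.3% in the stage 17 libraries. ple stood at 3.49% and 3.95% at 24 h ALH, against 0% and 46.0% at stage 17, where the last value rests on 2 UMIs. Most positive NSC-like cells at 24 h ALH had a single UMI: for ChAT 30 of 39 and 18 of 21 cells, and for Gad1 29 of 35 and 24 of 26. The median depth of NSC-like cells was 72152.5 and 60922 UMIs at 24 h ALH, against 2419 and 3110 at stage 17.

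Between the stages, NSC-like sums were compared to ask how the members stand in qNSCs and in reactivated NSCs. Only 5 of the 10 genes passed the filter on low counts, and of these 1, Gad1, was lower at 24 h ALH (edgeR, 28.7% of 7181 genes passed in either direction). With 1 of 5 not above this background, the count is no result about the members. ChAT had 57 and 28 UMIs in NSC-like cells at 24 h ALH, against 0 and 2 at stage 17 (log2 difference −1.83, SE 1.31, adjusted p = 0.322). VAChT had 103 and 28 UMIs, against 0 and 7 (−3.07, SE 1.04, adjusted p = 0.0520), and Vmat 101 and 39, against 1 and 3 (−2.16, SE 0.91, adjusted p = 0.106). Of the genes under the filter, VGAT had 22 and 4 UMIs, against 0 and 4, and ple 33 and 6, against 0 and 2. Tdc2 (3 and 1), SerT (4 and 1) and DAT (3 and 4) had UMIs at 24 h ALH and 0 at stage 17.

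Gad1 had 58 and 44 UMIs in NSC-like cells at 24 h ALH and 3 and 51 at stage 17, which is 1.58 and 2.19 CPM at 24 h ALH, against 31.7 and 224 CPM at stage 17. It fell by 6.15 on the log2 scale (SE 0.75, edgeR adjusted p = 0.00172), and 43 of the 51 UMIs in the second stage 17 library came from 1 cell. Without that library the difference was −3.59 (adjusted p = 0.0404). VGlut had 71 and 174 UMIs at 24 h ALH, of which 144 were in 1 cell, and 18 and 6 at stage 17, of which 13 were in 1 cell (−3.74, SE 1.61, adjusted p = 0.177). At 1000 UMIs per cell, Gad1 was in 0 and 0.595% of NSC-like cells at 24 h ALH and in 4.55% and 4.17% at stage 17, or 1 cell in each stage 17 library. VGlut was in 0 and 0.595% at 24 h ALH, against 13.6% and 8.33% at stage 17.

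The 9 neuron markers moved the same way in these cells. They summed to 2.37 and 2.47 UMIs per 10000 in NSC-like cells at 24 h ALH, against 20.3 and 28.5 at stage 17, and the 9 muscle markers to 0.219 and 0.334, against 11.1 and 2.28. All 9 neuron markers were detected in each of these sums. At 1000 UMIs, Gad1 was in 3.80% of glia-like and 8.62% of epidermis-like cells of stage 17. For VGlut those shares were 7.59% and 5.17%. The part of such RNA in the NSC-like difference was not tested.

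Whether the stage difference itself differs between the classes was tested as an interaction of class and stage, in a single fit of the 8 sums blocked by library. It passed for 2 of the 10 genes, where 12.5% of 7860 genes passed in either direction. The stage difference of Gad1 was lower in NSC-like cells (interaction −4.83 on the log2 scale, SE 0.84, edgeR adjusted p = 0.0133), and so was that of VGlut (−2.87, SE 0.60, adjusted p = 0.00286), or −4.82 and −2.85 without cluster 6. The other genes did not pass: ChAT stood at −1.41 (adjusted p = 0.548), VAChT at −2.18 (0.117), VGAT at −3.61 (0.0750), Vmat at −2.99 (0.0672) and ple at −1.17 (0.638), and Tdc2, SerT and DAT had 0 UMIs in the stage 17 NSC-like sums. Without the second stage 17 library 0 of the 10 passed in edgeR, 2 had an unadjusted p under 0.05, and Gad1 stood at −2.39 (adjusted p = 0.161).

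**Figure D5:**
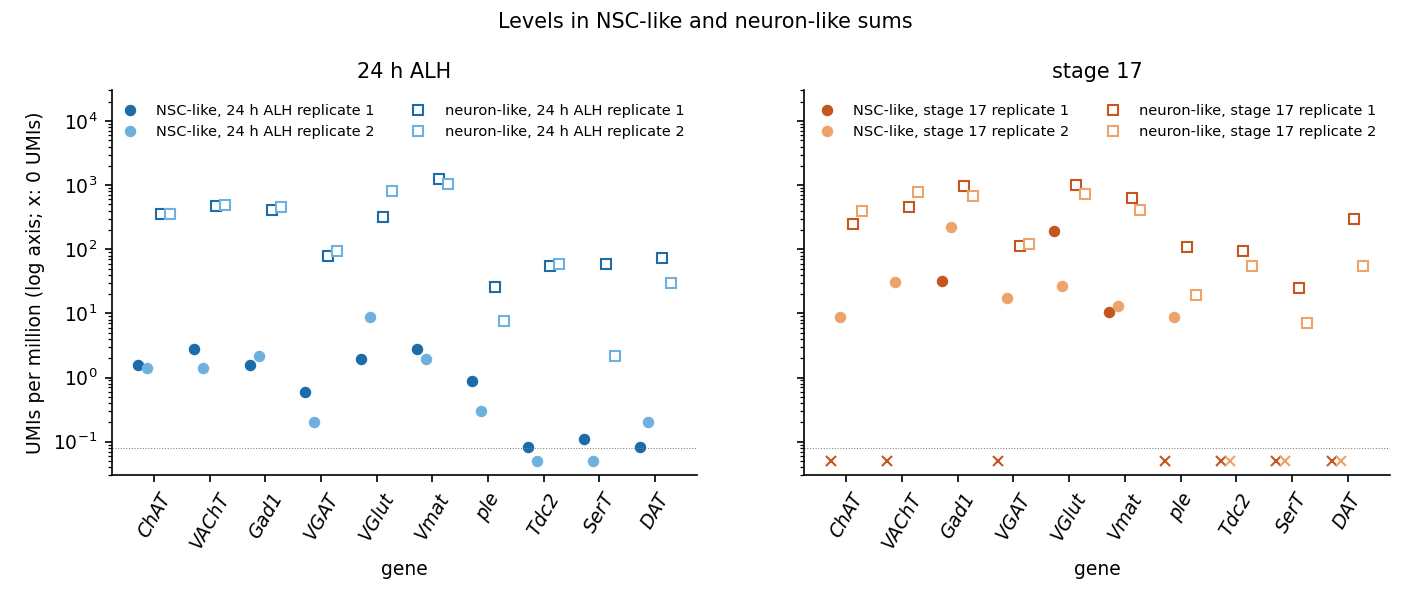
Level of the 10 genes (y axis, CPM, log scale, with a cross where a sum held 0 UMIs) in NSC-like sums (filled symbols) and neuron-like sums (open symbols) of each library, at 24 h ALH and at stage 17. Gad1 stands at 1.58 and 2.19 CPM in NSC-like and 409 and 457 CPM in neuron-like sums at 24 h ALH, and at 31.7 and 224 and at 972 and 671 CPM at stage 17.

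In NSC-like cells 12 of the related genes were tested, and 3 were higher and 4 lower at 24 h ALH (edgeR, where 28.7% of 7181 genes passed in either direction). The rises were Got2 (log2 difference 2.64), the glutamate transporter Eaat1 (2.62, with 120 and 109 CPM at 24 h ALH, against 21.1 and 21.9 at stage 17) and Got1 (2.19), a further aspartate aminotransferase. At stage 17 they rest on 0 and 2 UMIs for Got2, 2 and 5 for Eaat1 and 1 and 7 for Got1. The largest falls were Ace, the acetylcholine esterase, at −4.28 (2.45 and 2.93 CPM at 24 h ALH, against 42.2 and 70.2 at stage 17, adjusted p = 0.000785), the glutamine synthetase Gs1 at −3.92 and Ddc at −3.87. The falls rest on 1 to 16 UMIs per stage 17 library for these 3 genes. Gs1 (0.815 and 1.74 CPM at 24 h ALH) and Ddc (0.652 and 0.795) passed the low-count filter only with their stage 17 sums, where they are higher. Their falls, which are among the 4, are therefore no result about them.

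Between the classes, 13 of the 19 related genes tested were lower in NSC-like cells at stage 17 and 1, Catsup, was higher (log2 2.88), where 25.5% of all genes were lower and 1370 of 7860 higher. Only 12 of these 19 passed the filter in NSC-like sums alone, and the others entered through the neuron-like sums. At 24 h ALH 15 were lower and 2 were higher, Eaat1 (4.19) and Catsup (1.18), where 34.7% of all genes were lower and 3278 of 7860 higher. Eaat1 is the main glial glutamate transporter of the fly.

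Over all cells, neuron-like cells held most of the UMIs of 9 of the 10 genes: 80.3% of 7606 for ChAT, 73.6% of 14085 for VAChT, 76.7% of 12731 for Gad1, 75.9% of 2296 for VGAT, 76.9% of 14642 for VGlut and 86.6% of 14353 for Vmat. For Tdc2, SerT and DAT the shares were 90.1% of 1080, 87.2% of 358 and 76.9% of 1535. The exception was ple, with 24.3% of 1687 UMIs in neuron-like cells. Tyrosine hydroxylase also serves the hardening and colouring of cuticle in the fly.

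Epidermis-like cells held 1040 of the ple UMIs, 61.6%. They were spread as 930 UMIs in 4 of 11 cells and 62 in 6 of 18 at 24 h ALH, against 3 in 2 of 24 and 45 in 11 of 40 at stage 17, and a single cell of the first 24 h ALH library held 722. In the 33 cells of cluster 3 from the second 24 h ALH library, 26 held ple with 71 UMIs in all. DAT was found in glia-like cells, with 122 UMIs (7.95% of its total) in 13 of 152 cells.

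The cholinergic genes were also found in progenitor-like cells, which their markers do not set clearly apart from young neurons. These cells carried neuron markers too: all 9 were detected and summed to 64.4 and 66.1 UMIs per 10000 at 24 h ALH, beside 23.1 and 29.0 for the 5 progenitor markers. Progenitor-like cells, 28 and 145 at 24 h ALH, held VAChT in 19 and 84 cells (146 and 647 UMIs) and ChAT in 10 and 37 (29 and 69 UMIs), while Gad1 was in 1 and 0 cells and VGlut in 1 and 2. Pooled over both libraries VAChT was in 59.5% and ChAT in 27.2% of these cells, at a median depth of 13592 UMIs. At 1000 UMIs VAChT was in 24.3% of the 173 progenitor-like cells, against 3.13% of the 64 glia-like cells of the same stage, whose median depth was 13863 UMIs. ChAT was in 1.16% of the progenitor-like cells at that depth. Stage 17 gave 5 and 2 progenitor-like cells, so the stages were not compared.

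Detection in glia-like cells differed by stage, and these cells also carried neuron markers, as given above. With all UMIs, VGlut was in 1.56% and Gad1 in 3.13% of the 64 glia-like cells at 24 h ALH, against 28.4% and 25% of the 88 at stage 17, although the 24 h ALH cells were deeper. By library at stage 17, VGlut was in 5 of 42 and 20 of 46 cells and Gad1 in 4 of 42 and 18 of 46, so the second library held most of them. In the second stage 17 library single cells held 155 of the 291 VGlut UMIs and 133 of the 160 Gad1 UMIs of glia-like cells. Muscle-like cells had no VAChT, Gad1 or VGlut UMI in 8 cells at 24 h ALH, and at stage 17 VAChT was in 2, Gad1 in 1 and VGlut in 2 of 21. These cells are too few to compare the stages.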

How the data were processed

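Single cells from 2 libraries per stage were grouped by the labels. The authors deposited raw counts, whole UMIs per gene and called cell with no normalization, made with Cell Ranger (matrix header 3.0.2, processing notes 3, dm6; the methods name a later version). The study's limits were applied here: 200 to 6000 genes and at most 5% mitochondrial UMIs. Total UMIs per library were 53458971 and 33037729 at 24 h ALH and 2219533 and 15290553 at stage 17, so single UMIs decide low levels in stage 17 NSC-like cells.

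Clusters came from Seurat 5.3.0 in R 4.3.3 (2000 variable features, 30 dimensions, resolution 0.5). The 10 genes and the related genes present, 34 in all, were left out of the clustering genes. A name needed 3 markers found in 25% of cells and a lead of 0.5 (log2) over other lists. The 10 genes, marker and related lists were chosen with earlier results of these data known. Doublets called with Scrublet in Scanpy 1.11.5 (39 cells, 1.09%) were kept. UMI sums per library and class were tested with edgeR 4.0.16 (TMM, filterByExpr, robust quasi-likelihood, Benjamini-Hochberg adjusted p under 0.05). Shares used 1000 UMIs drawn per cell with a fixed seed, and a count of 0 was taken to allow 3. The edgeR steps were tested on simulated data with known changes. DESeq2 1.42.0, other scaling, filters, clusters, gates and depths, the replicate number as a block and each library left out were alternatives.

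The 10 genes were named in each comparison, with those under the low-count filter given as UMIs, along with the 3 largest rises and 3 largest falls past the threshold of the related list, and the 4 genes nearest in pattern to ChAT, Gad1, VGlut and Vmat among genes with a UMI in at least 5% of neuron-like cells of each library. Lovit, speck and AANAT1 of the related list were not matched. One gene of that list is not reported here. The authors' cell annotation was not used here.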

Additional observations from a re-analysis of the deposited data

Results flagged for a closer look

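For 8 of the genes named above the stage difference was not the same in NSC-like and neuron-like cells, by edgeR's interaction term with Benjamini-Hochberg adjustment over all genes. Over the full lists 2 of the 10 members and 7 of the 19 related genes tested passed. The values are the log2 difference of 24 h ALH minus stage 17 in NSC-like cells minus that in neuron-like cells. Among the transmitter genes Gad1 stood at −4.83 and VGlut at −2.87. Among the related genes Ace stood at −3.74, Ddc at −3.65, Gs1 at −3.46 and Catsup at −1.70, so that their difference was lower in NSC-like cells. Eaat1 stood at 4.68 and Got1 at 1.92, so that theirs was higher. In the NSC-like sums of stage 17 these genes had 1 to 51 UMIs per library. Gs1 and Ddc passed the filter in NSC-like sums alone only with those of stage 17, so their values here are a description.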

How the results depend on the processing

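Of the 10 genes, 2 passed between the stages in neuron-like cells (edgeR, 2239 of 7269 genes), 4 with a replicate block (2692 of 7269 genes) and 1 to 5 with each library left out (628 of 7643 genes without 24 h ALH replicate 1, 856 of 7703 without replicate 2, 4211 of 7708 without stage 17 replicate 1 and 3490 of 7468 without replicate 2). Where cells were thinned to 1000 UMIs or gated by markers 2 passed as well, but not the same genes: 0 were higher and 2 lower, Tdc2 (−2.20, edgeR adjusted p = 0.0416) and DAT (−3.20, adjusted p = 0.0447) thinned, and Gad1 (−1.53, adjusted p = 0.0156) and VGAT (−0.94, adjusted p = 0.0493) with gates. In NSC-like cells 1 passed (2063 of 7181 genes), but 4 with DESeq2 (2361 of 7181), 4 with no filter on low counts (2814 of 10764), 5 with marker gates (4690 of 7841), 2 with upper-quartile factors, with clusters found with the genes, without called doublets or with a replicate block (1618 of 7181 to 2468 of 7231), and 1 to 3 with each library left out (534 of 3503 to 2358 of 7827); thinned to 1000 UMIs, no member passed the filter. These NSC-like counts rest on few UMIs at stage 17 and move with the setting, so they are no result about the members. Same-numbered libraries did not deviate together (r = 0.0319 in neuron-like and −0.0251 in NSC-like sums). Since the kit also differs within stage 17, this does not decide whether the numbers pair them. Between classes 10 were lower at stage 17, and 4 with marker gates (1930 of 8520 genes in either direction). The 10 include the genes that entered this test through the neuron-like sums. For the interaction 2 passed (981 of 7860 genes), 4 with DESeq2 (911 of 7860), 5 with clusters found with the genes (1136 of 7911), 5 with marker gates (1536 of 8520), 4 without called doublets (1193 of 7856), 0 thinned to 1000 UMIs (edgeR, 1 at an unadjusted p under 0.05) and 0 to 4 with each library left out (0 without stage 17 replicate 2, 2 at an unadjusted p under 0.05).

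The share of neuron-like cells with any fast transmitter was 91.8%, 99.5%, 40.4% and 61.3% at 24 h ALH and 95.2%, 98.5%, 53.6% and 82.6% at stage 17 with 2000 UMIs, all UMIs, detection at 2 UMIs and marker gates. With the first 3 of these settings the share with more than 1 transmitter was 12.0%, 45.1% and 0.82% at 24 h ALH and 37.4%, 59.3% and 4.92% at stage 17. With all UMIs the first stage 17 library (40.9%) lay below both 24 h ALH libraries (47.0% and 43.2%).

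The log2 stage difference of ChAT in neuron-like cells, near 0, turned positive with upper-quartile factors (0.092), no filter (0.037), clusters found with the genes (0.021), finer clusters (0.060), thinning (0.018) and the block (0.047), and ran from −0.31 to 0.44 with each library left out. That of VAChT ran from −0.83 to 0.050 and that of SerT from −2.81 to 1.96 with each library left out, SerT was −0.0089 with the block, and Vmat was −0.032 thinned. In NSC-like cells, without stage 17 replicate 2, where no UMI of either gene remained at stage 17, ChAT ran to 7.82 and VAChT to 8.35 (from −2.40 and −3.67). With a library left out, the 1 that remains at its stage is assumed to vary like those of the other stage. The causes of the other changes were not tested. Upper-quartile factors moved the median of all genes to 0.10 in neuron-like cells. Stage 17 NSC-like sums hold 49 cells, which limits the depth for every low gene there.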
